A study of Mus musculus with 21 samples.

Results

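The Adamts genes encode secreted zinc metalloproteases with thrombospondin type 1 repeats, which cut proteins of the extracellular matrix. The 8 genes described here (Adamts1, Adamts3, Adamts5, Adamts9, Adamts10, Adamts12, Adamts15 and Adamts20) were taken by symbol, out of 18193 genes that had at least 1 array probe set with a single gene symbol. Probe sets are the groups of short probes that together measure a transcript. The 8 genes had 16 probe sets among 45101 on the array, and for each gene the probe set with the highest mean signal was used, with the others as a check. These 8 were selected on their measured signals along the 7 parts, with that pattern already known, so their differences between parts are given as a description, with no test.

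The presomitic mesoderm (PSM) is the unsegmented paraxial tissue beside the caudal neural tube that is cut into somites. It was dissected from embryos of the outbred CD-1 mouse strain, with a stage label of E8.5 and a protocol that gives 9.0 days post-coitus, after 1 min in pancreatin (2 mg/ml). Each PSM was divided into 7 pieces, called parts 1 to 7. Total RNA from each part was hybridised to 3 Affymetrix arrays, 21 in all, which the labels call biological replicates 1 to 3. There was no treatment or mutant group. The labels describe the series as running from tailbud to somite, but do not say which part number lies at which end, so parts are given by number. Per the design text, tissue of both sides was taken from the same embryo and a further set from a different one, so that some arrays share an embryo. Values are MAS5 signals, a linear brightness per probe set. Differences were taken on log2(signal + 16), a scale on which a signal of 0 becomes 4 and changes of low signals are understated.

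The arrays were alike in overall brightness, with means of 151 to 154 and medians of 12.9 to 13.7, and no pair held identical values. All 16 listed paraxial mesoderm markers were measured and passed the filter on low values, a signal at or above the median of the whole table (13.3) in at least 3 arrays. So did all 8 Adamts genes, among 12143 genes kept. In part 1 the caudal factor Cdx2 was at 8.98 ± 0.45 on the log2 scale (SD, n = 3), and in part 7 at 4.85 ± 0.41. Tbx6, which specifies paraxial mesoderm, went from 9.10 ± 0.17 to 5.45 ± 0.52, and Msgn1 from 5.77 ± 0.66 to 4.48 ± 0.48. In the opposite direction the somite gene Meox1 went from 5.29 ± 0.59 to 11.40 ± 0.28, Tcf15 from 7.16 ± 0.30 to 10.99 ± 0.34 and Uncx from 4.06 ± 0.01 to 8.99 ± 0.39. The number of arrays limits the precision of every value.

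Adamts proteases are made as inactive precursors, and their prodomain is removed by proprotein convertases such as furin. By substrate they fall into groups. Adamts1, Adamts5, Adamts9, Adamts15 and Adamts20 cleave the large hyaluronan-binding proteoglycans versican and aggrecan, Adamts3 removes the N-propeptide of fibrillar procollagens and activates the lymphatic growth factor VEGF-C, Adamts10 binds fibrillin microfibrils, and Adamts12 cleaves cartilage oligomeric matrix protein. In embryos, cleavage of versican is known for clearing provisional matrix as tissues are remodelled, and fibronectin and proteoglycan matrix surrounds the paraxial mesoderm as somites form.

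The 8 genes followed 3 courses. Signals of Adamts20, Adamts3, Adamts9 and Adamts10 were highest in parts 2 or 3 and lowest in parts 6 or 7. Adamts5 peaked in part 5. Those of Adamts1, Adamts12 and Adamts15 were highest in parts 6 or 7 and lowest in parts 1 or 2. All 3 arrays of part 7 lay below all 3 of part 1 for 3 genes (Adamts20, Adamts3 and Adamts9), beside 14.7% of the 12143 genes that passed the filter. All 3 lay above them for 3 genes (Adamts5, Adamts15 and Adamts12), beside 14.4% of those genes. Together 29.1% of those genes had no overlap. Nothing is read from these shares, since the genes were chosen with this contrast known. In dissected tissue, fewer cells of a type and less RNA per cell cannot be told apart.

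**Figure D1:**
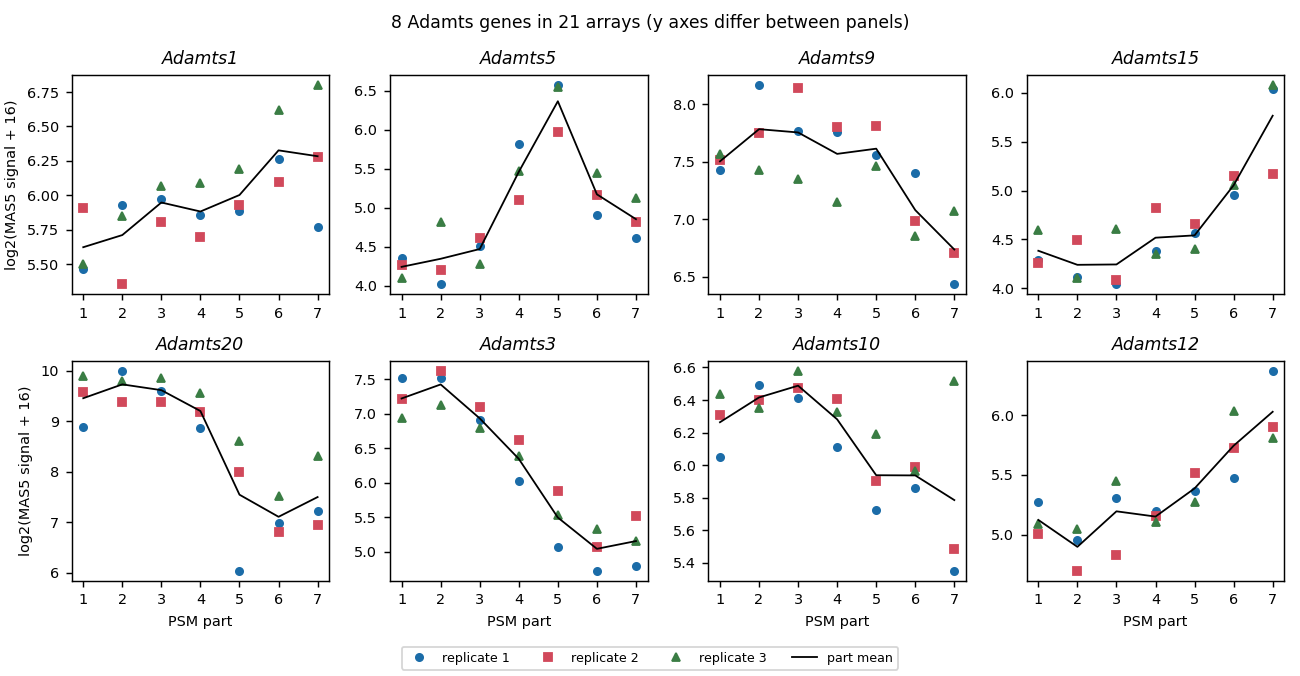
Log2(MAS5 signal + 16) of the 8 Adamts genes in each of the 21 arrays against PSM part number, with a symbol for each replicate number and a line through the part means. Adamts20 and Adamts3 have their highest means in part 2, Adamts5 has a peak in part 5 (mean 6.37), and Adamts15 and Adamts12 are highest in part 7.

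Promoter sequences from RefSeq's promoter table (build GRCm38.p6) are shown for Adamts3 and Adamts20, which were low in part 7, for Adamts12, which was highest there, and for Adamts1, whose window held the only TATA box among the genes with an entry. They are the 250 bases before the transcript start in that table, 5′ to 3′ on the strand of the gene, and 5 of the 8 genes had an entry. Adamts3 lies at chr5:89883335-89883584, Adamts20 at chr15:94404351-94404600 and Adamts1 at chr16:85803114-85803363, each on the minus strand, and Adamts12 at chr15:11064523-11064772 on the plus strand. Capitals mark matches on either strand to 7 short motifs. They were the TATA box TATAAA, the T-box motif CACACCT, the RBPJ motif GTGGGAA, the caudal homeobox motif TTTATNG, the TCF/LEF motif CTTTGAN, the common promoter element CCAAT and the GC box GGGCGG.
Adamts3: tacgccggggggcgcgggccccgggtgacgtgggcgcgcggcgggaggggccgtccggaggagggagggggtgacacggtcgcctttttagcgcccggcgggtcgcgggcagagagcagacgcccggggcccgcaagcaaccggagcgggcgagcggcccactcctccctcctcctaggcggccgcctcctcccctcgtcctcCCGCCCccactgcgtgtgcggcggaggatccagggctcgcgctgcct
Adamts20: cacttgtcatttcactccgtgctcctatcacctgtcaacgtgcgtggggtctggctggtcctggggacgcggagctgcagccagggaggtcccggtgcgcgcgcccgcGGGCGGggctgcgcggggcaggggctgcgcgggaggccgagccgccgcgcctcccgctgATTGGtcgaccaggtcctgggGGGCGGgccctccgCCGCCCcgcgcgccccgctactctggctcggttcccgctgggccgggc
Adamts1: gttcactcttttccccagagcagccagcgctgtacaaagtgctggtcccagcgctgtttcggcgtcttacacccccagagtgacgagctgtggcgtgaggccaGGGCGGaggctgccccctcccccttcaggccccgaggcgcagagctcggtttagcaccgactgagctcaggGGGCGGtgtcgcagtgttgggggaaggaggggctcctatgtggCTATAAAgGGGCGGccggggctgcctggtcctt
Adamts12: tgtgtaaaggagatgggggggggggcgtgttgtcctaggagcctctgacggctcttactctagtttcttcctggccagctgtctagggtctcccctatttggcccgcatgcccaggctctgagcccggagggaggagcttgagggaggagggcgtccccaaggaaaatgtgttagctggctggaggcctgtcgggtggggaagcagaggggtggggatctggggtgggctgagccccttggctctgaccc

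The promoters of Adamts3 and Adamts20, the 2 genes with the lowest slopes of the 8, were rich in G and C, at 78.0% and 76.4%, against a median of 52.4% over 32851 promoters. They held 35 and 32 CG pairs, more than 97.0% and 95.4% of all promoters. The Adamts9 window, not shown, had 71.2% G and C and 22 CG pairs, and that of Adamts1 had 65.6% and 15. The Adamts12 window had 63.2% G and C and 6 CG pairs, the median number. Every gene with an entry was thus above the median in G and C, whatever its course. The Adamts1 window held a TATAAA 32 bases before the start, found in 12.4% of promoters, which overlaps a match to TTTATNG on the other strand (9.81% of promoters). GGGCGG occurred 3 times in Adamts1, 3 times in Adamts20 and once each in Adamts3 and Adamts9, and was present in 32.7% of promoters. CCAAT occurred once, in Adamts20 (33.8% of promoters). CACACCT (5.1%), GTGGGAA (5.42%) and CTTTGAN (13.8%) had no match in the 4 windows shown, and Adamts12 had no match to any of the 7. A match describes letters in these windows only.

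Among the proteoglycan-cleaving genes, Adamts20, mutated in the belted mouse with its missing coat pigment, was high in parts 1 to 4 and lower in parts 5 to 7. Its signals were 456, 749 and 943 in part 1, 1008, 654 and 878 in part 2, 757, 654 and 917 in part 3 and 449.5, 566 and 738 in part 4. They were 49.7, 239 and 373 in part 5, 111, 96.1 and 168 in part 6 and 134, 107 and 303 in part 7. Every array of parts 1 to 4 was thus above every array of parts 5 to 7. Among parts next to each other in the order of means, the arrays separated between parts 4 and 5 and overlapped elsewhere. On the log2 scale part 2 averaged 9.73 ± 0.31 (SD, n = 3), against 7.11 ± 0.37 in part 6, a 6.16-fold difference. It was 3.89-fold lower in part 7 than in part 1, by -1.96 ± 0.47 log2 units (SE). The slope was -0.47 ± 0.08 log2 units per part (SE), and -0.52, -0.52 and -0.38 within replicate numbers 1, 2 and 3. It was the lowest of the 8, but with a pseudocount of 1 (-0.50 against -0.59) and without replicate 2 (-0.45 against -0.46) that of Adamts3 was lower. The step from part 4 to part 5 was -1.66 log2 units with all arrays. Without part 5 replicate 1, the lowest array of that part at a signal of 49.7, it was -0.90. In a test chosen after seeing the data, the replicate numbers differed beside the part for Adamts20 (limma, adjusted p = 0.016) and for none of the other 7, beside 33.3% of all genes tested.

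Adamts5, a main aggrecan-cleaving enzyme of cartilage, had its peak in the middle. Its signals were 4.46, 3.32 and 1.15 in part 1, 0.18, 2.38 and 12.3 in part 2 and 6.78, 8.56 and 3.48 in part 3, all below the median of the whole table, 13.3. They were 40.4, 18.2 and 28.4 in part 4, 79.9, 46.9 and 77.5 in part 5, 13.9, 19.8 and 27.8 in part 6 and 8.56, 12.1 and 19.03 in part 7. The 3 arrays of part 5 were above all others. The arrays of part 4 did not overlap those of part 3, and the arrays of part 6 did not overlap those of part 5. On the log2 scale the mean of part 5, 6.37 ± 0.34 (SD, n = 3), was 4.37-fold above that of part 1, 4.24 ± 0.13, and 2.86-fold above that of part 7, 4.85 ± 0.26. Of 21 arrays 10 reached the table median, all in parts 4 to 7, so that the gene passed the filter only through the parts where it was high. Another probe set ran alike, with its highest mean in part 5, 4.5-fold above part 1. One more also peaked in part 5 (1.79-fold above part 1), and the last one stayed at or below a signal of 2.5 in every array. A straight line describes this course poorly, and its slope of 0.19 ± 0.07 (SE) does not show the peak.

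Adamts9, a versican-cleaving enzyme made by many embryonic tissues including endothelium, was measured above the table median in all 21 arrays. Its signals were 156, 167 and 174 in part 1, 272, 199 and 156 in part 2 and 202, 267 and 147 in part 3. In part 4 they were 200.01, 207 and 126, in part 5 173, 209 and 161, in part 6 153, 110.3 and 99.7 and in part 7 70.4, 88.5 and 118. Parts 1 to 5 overlapped one another, and the arrays of part 6 lay below those of parts 1, 2 and 5. The mean of part 2, 7.78 ± 0.37 (SD, n = 3), was 2.06-fold above that of part 7, 6.74 ± 0.32. The other probe sets gave different courses. One of them had its highest mean in part 5, 1.98-fold above part 7, and a slope of -0.01, against -0.14 ± 0.04 (SE) for the probe set used. The other had signals of 15.4 to 43.1 and a slope of -0.03. The mean was thus highest in part 2 for 2 of the 3 probe sets and in part 5 for the other, and the lower level in part 7 than in part 1 was seen in 2 of them.

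**Figure D2:**
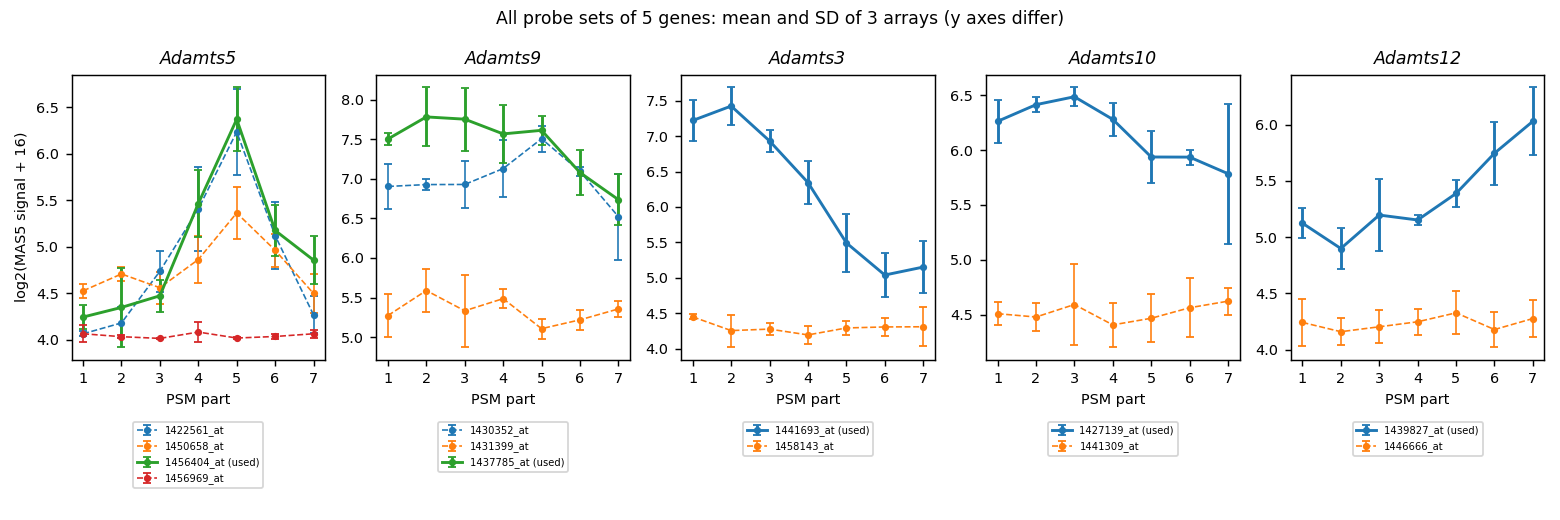
Mean and SD (3 arrays) of log2(MAS5 signal + 16) by PSM part for every probe set of Adamts5, Adamts9, Adamts3, Adamts10 and Adamts12, with the probe set used in a solid line. 3 of 4 Adamts5 probe sets peak in part 5, the Adamts9 probe sets are highest in part 2 (2 of 3) or part 5, and the other probe sets of Adamts3, Adamts10 and Adamts12 stay between 4 and 5 in their means.

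Adamts1, which cleaves versican and aggrecan and is known for its need in ovulation, was low in part 1 and higher in parts 6 and 7. Its signals were 28.1, 43.9 and 29.3 in part 1, 45.1, 24.9 and 41.7 in part 2, 46.9, 39.9 and 50.9 in part 3 and 42.1, 35.9 and 52.1 in part 4. They were 43.2, 45.0 and 57.0 in part 5, 60.8, 52.4 and 82.4 in part 6 and 38.4, 61.7 and 95.8 in part 7. Replicate 3 was the highest array of each part from 3 to 7. Parts 1 and 7 overlapped, and so did all parts next to each other in the order of means. The difference of part 7 over part 1 was 0.66 ± 0.23 log2 units (SE), or 1.58-fold. It was 0.30, 0.38 and 1.30 within replicate numbers 1, 2 and 3, and 0.40 without part 7 replicate 3, the highest of the 21 arrays. Adamts1 had 1 probe set.

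Adamts15, another versican-cleaving enzyme, was seen in parts 6 and 7. Its signals in parts 1 to 5 ran from 0.44 to 12.3 in 15 arrays, all below the table median. In part 6 they were 15.0, 19.6 and 17.3, and in part 7 49.9, 20.1 and 52.0. The arrays of part 7 were all above those of part 6, and those of part 6 all above those of part 5. It thus passed the filter only through those 6 arrays. On the log2 scale part 1 averaged 4.38 ± 0.19 (SD, n = 3), against 5.77 ± 0.52 in part 7, a difference of 1.38 ± 0.22 (SE) or 2.61-fold, which this scale understates. The slope was 0.22 ± 0.04 per part (SE).

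Adamts3, the procollagen and VEGF-C processing enzyme, had a more graded course over the parts than Adamts20. Its signals were 166, 132 and 107 in part 1, 168, 181 and 124 in part 2, 104, 121 and 94.4 in part 3 and 49.1, 82.3 and 67.8 in part 4. They were 17.7, 43.1 and 30.0 in part 5, 10.4, 17.6 and 24.2 in part 6 and 11.6, 29.8 and 19.6 in part 7. From part 2 to part 5 each part lay wholly below the one before, and parts 5, 6 and 7 overlapped. Part 7 was 4.19-fold below part 1, by -2.07 ± 0.24 log2 units (SE), and -2.72, -1.69 and -1.79 within replicate numbers 1, 2 and 3. The slope was -0.44 ± 0.04 per part (SE). The other probe set stayed between signals of 0.74 and 8.63, below the table median in every array, with a slope of -0.01.

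Adamts10, which binds fibrillin and is mutated in human Weill-Marchesani syndrome, had a small range. Its signals in parts 1 to 4 ran from 50.2 to 79.6 in 12 arrays. They were 36.8, 43.8 and 56.9 in part 5, 42.1, 47.5 and 46.4 in part 6 and 24.8, 28.9 and 75.6 in part 7. Parts 1 and 7 overlapped because of part 7 replicate 3, the second highest of the 21 arrays. The difference of part 7 from part 1 was -0.48 ± 0.22 log2 units (SE), 0.08 within replicate number 3 against -0.70 and -0.82 within numbers 1 and 2. Without part 7 replicate 3 it was -0.84. The other probe set reached the table median in 1 array and had a slope of 0.01, against -0.11 ± 0.03 (SE).

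Adamts12, the enzyme that cleaves cartilage oligomeric matrix protein, had signals of 9.98 to 29.9 in parts 1 to 5. In part 6 they were 28.5, 36.9 and 49.5, and in part 7 66.8, 43.9 and 40.2. All arrays of parts 6 and 7 except part 6 replicate 1 were above every array of parts 1 to 5. Part 7 was 1.87-fold above part 1, by 0.90 ± 0.19 log2 units (SE), and by 1.10, 0.89 and 0.72 within the replicate numbers. The slope was 0.16 ± 0.03 per part (SE). The other probe set stayed at or below a signal of 6.58.

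**Figure D3:**
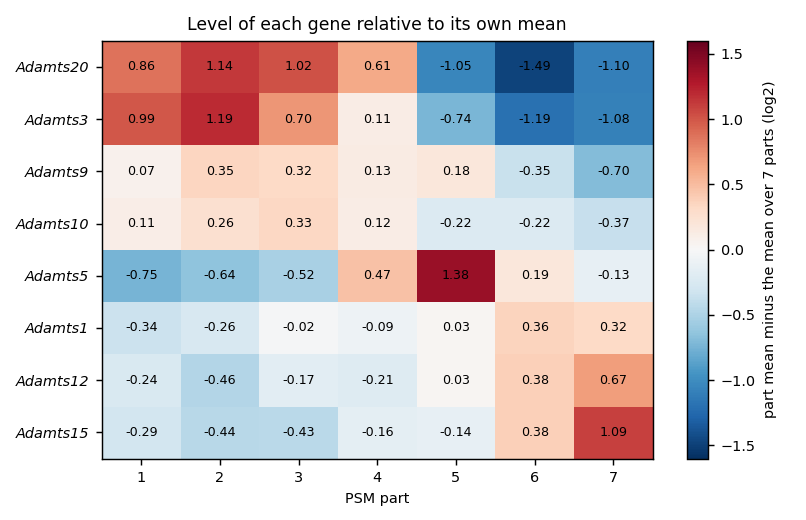
Mean log2(MAS5 signal + 16) of each Adamts gene in each PSM part minus its own mean over the 7 parts, in log2 units (red above, blue below). Adamts20 ranges from 1.14 in part 2 to -1.49 in part 6, Adamts5 is at 1.38 in part 5, and Adamts15 is at 1.09 in part 7.

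The genes were also set against each other over the 21 arrays, as a description, since arrays share the part, the replicate number and in some cases the embryo. Among the 28 pairs, the highest Pearson r was 0.86 for Adamts20 with Adamts3, followed by 0.84 for Adamts20 with Adamts10 and 0.82 for Adamts15 with Adamts12. The lowest was -0.83 for Adamts9 with Adamts12. Adamts1 and Adamts5 are neighbours on their chromosome, with no other protein-coding gene between them, and their r was 0.35. Adamts15 has Adamts8 as its next protein-coding neighbour, and Adamts8 did not pass the filter on low values.

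For each gene the 3 most alike of the other genes were found by Pearson r over the 21 arrays. Adamts3 was closest to Gad1 (r = 0.98), Btg2 (0.97) and the most 5′ gene of the Hoxd cluster, Hoxd13 (0.96). Adamts20 was closest to Dixdc1 (0.98), a Wnt pathway gene, Nol4l (0.95) and Plekha1 (0.95). Adamts15 was closest to Cthrc1 (0.95), Igfbp5 (0.92), which binds insulin-like growth factors, and the forkhead gene Foxd2 (0.90). Adamts12 was closest to the T-box gene Tbx22 (0.91), Foxd2 (0.87) and Mrps35 (0.87). Foxd2 had a mean log2 signal of 4.49 in part 1 and 7.27 in part 7. Adamts5 was closest to Syne2 (0.86), Elf1 (0.85) and Synm (0.84), an intermediate filament gene, with Synm at 5.25 in part 1, 8.51 in part 5 and 6.56 in part 7. Adamts9 was closest to Pcolce2 (0.83), an enhancer of procollagen processing, Glis3 (0.83) and Acsl6 (0.81). Adamts10 was closest to Lpp (0.83), Hoxc4 (0.82) and Dixdc1 (0.80). Adamts1 was closest to Cipc (0.85), Slc39a7 (0.85) and Tbrg4 (0.82).

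The other genes of the family and their partners were tested with limma on the same arrays, as a slope with part number and as part 7 against part 1. Of 12143 genes tested, 8.09% rose and 11.1% fell with part number at an adjusted p under 0.05, 19.2% in all. For part 7 against part 1 the shares were 6.1% higher and 7.3% lower. Because embryos were shared, the p-values cover only how these arrays vary, which may be partly technical, and they are too small for a statement about embryos. The fits also left out the replicate number. With it as a block more genes passed, 3046 against 2328 for the slope and 2860 against 1628 for part 7 against part 1.

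Of 18 other Adamts and Adamts-like genes, 14 were measured and 7 passed the filter. Of these 7, 1 fell, 0 rose and 6 did not pass the test, with a median slope of 0.01 against -0.0013 for all genes tested. The 1 that fell was Adamtsl2, a fibrillin-binding relative without a protease domain. Its signals were 251, 446 and 243 in part 1, 186, 211 and 83.2 in part 2 and 69.6, 69.5 and 50.9 in part 3. They were 23.6, 38.0 and 26.7 in part 4, 7.38, 28.2 and 9.999 in part 5, 9.22, 2.97 and 11.5 in part 6 and 2.39, 8.21 and 11.7 in part 7. From part 1 to part 4 each part lay wholly below the one before. Its slope was -0.66 ± 0.05 per part (SE; limma, adjusted p = 2.17e-09), and part 7 was 13.7-fold below part 1 (adjusted p = 4.14e-08).

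Among the relatives that did not pass, Adamts6, a fibrillin-associated enzyme like Adamts10, had a mean log2 signal of 5.11 in part 1, 5.78 in part 4 and 4.92 in part 7 (slope -0.06 ± 0.05, SE; limma, adjusted p = 0.448). Adamts4, an aggrecan-cleaving enzyme, had a slope of -0.06 ± 0.03 (adjusted p = 0.19), and it passed when the mean of its probe sets was used (adjusted p = 0.0339). Adamts7, which like Adamts12 cleaves cartilage oligomeric matrix protein, had a slope of 0.01 ± 0.03 (adjusted p = 0.869). Slopes of Adamts16, Adamtsl3 and Thsd4 were 0.04, 0.06 and 0.02 (adjusted p = 0.472, 0.206 and 0.751). Adamts8, Adamts18, Adamts19, Adamtsl1, Adamtsl4, Adamtsl5 and Papln did not pass the filter. Adamts2, Adamts13, Adamts14 and Adamts17 were not analysed here.

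Matrix substrates and their binding partners are counted beside all genes tested, of which 8.09% rose and 11.1% fell with part number. Of 24 listed, 23 were measured and 18 passed the filter, of which 2 rose, 3 fell and 13 did not pass, with a median slope of -0.02. For part 7 against part 1, 2 were higher (Fbn2 and Reln) and 3 lower (Ncan, Has2 and Col1a2), beside 6.1% and 7.3% of all genes tested. Versican itself (Vcan) had a slope of -0.08 ± 0.05 (SE; limma, adjusted p = 0.28) and aggrecan (Acan) of -0.01 ± 0.02 (adjusted p = 0.764). In the hyaluronan matrix to which versican binds, 2 genes fell, the link protein gene Hapln1 with a slope of -0.27 ± 0.09 per part (adjusted p = 0.0396), and the hyaluronan synthase gene Has2 with a slope of -0.17 ± 0.05 (adjusted p = 0.012). The call of Hapln1 was lost without replicate 1 or replicate 3 (adjusted p = 0.26 and 0.125), without the filter (0.059) and with a pseudocount of 1 (0.0517), and that of Has2 without replicate 1 or replicate 2 (adjusted p = 0.275 and 0.155). Part 7 against part 1 did not pass for Hapln1 (limma, adjusted p = 0.321), and its highest mean log2 signal was in part 3 (6.75). Signals of Hapln1 in part 2 were 48.0, 8.11 and 254, which shows how far replicates differed.

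Of the fibrillin and collagen partners, Fbn2 rose, and Col1a2 had a falling slope but its lowest mean in part 5. Fbn2, the fibrillin of embryonic microfibrils, rose with a slope of 0.55 ± 0.04 per part (SE; limma, adjusted p = 3.29e-09). Its signals were 280.4, 160.0 and 369.7 in part 1, 1760.2, 1406 and 1233 in part 4 and 3294, 3215 and 3171 in part 7, an 11.9-fold difference of part 7 over part 1. Col1a2, a chain of collagen I, had a slope of -0.31 ± 0.08 per part (adjusted p = 0.00713), a call that was lost without replicate 2 (adjusted p = 0.127). Its mean log2 signal was 8.76 in part 1, 5.88 in part 5 and 7.03 in part 7. All arrays of part 7 lay above all of part 5, so that a straight line describes this course poorly. Col2a1 had a slope of -0.00 ± 0.04 (adjusted p = 0.995). That of Col1a1 was -0.04 ± 0.05 (adjusted p = 0.66), and it passed without replicate 3 (slope -0.11, adjusted p = 0.032). Reln, whose product can be cleaved by Adamts3, rose with a slope of 0.16 ± 0.04 (adjusted p = 0.00657), was 2.36-fold higher in part 7 than in part 1, and lost its slope call without replicate 2 (adjusted p = 0.0951). The fibrillin gene Fbn1 was not analysed here, and Comp did not pass the filter.

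The partners of Adamts3 in VEGF-C activation are given beside it, without a test of the difference. Ccbe1, the secreted cofactor that brings Adamts3 to VEGF-C, rose with a slope of 0.37 ± 0.05 per part (SE; limma, adjusted p = 1.3e-05). Its signals were 15.2, 17.0 and 11.7 in part 1, 30.8, 24.7 and 33.0 in part 3, 77.3, 75.4 and 83.7 in part 4 and 124, 86.0 and 50.5 in part 7, so that arrays of part 4 lay wholly above those of part 3. Over the same step Adamts3 was lower in part 4 than in part 3 in all arrays. The ligand gene Vegfc had signals of 351, 401 and 230.4 in part 1, 452, 717 and 527 in part 3 and 305, 206 and 319 in part 7. Its slope of -0.15 ± 0.06 did not pass (adjusted p = 0.101), and with the mean of its probe sets it did (-0.18, adjusted p = 0.0258).

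**Figure D4:**
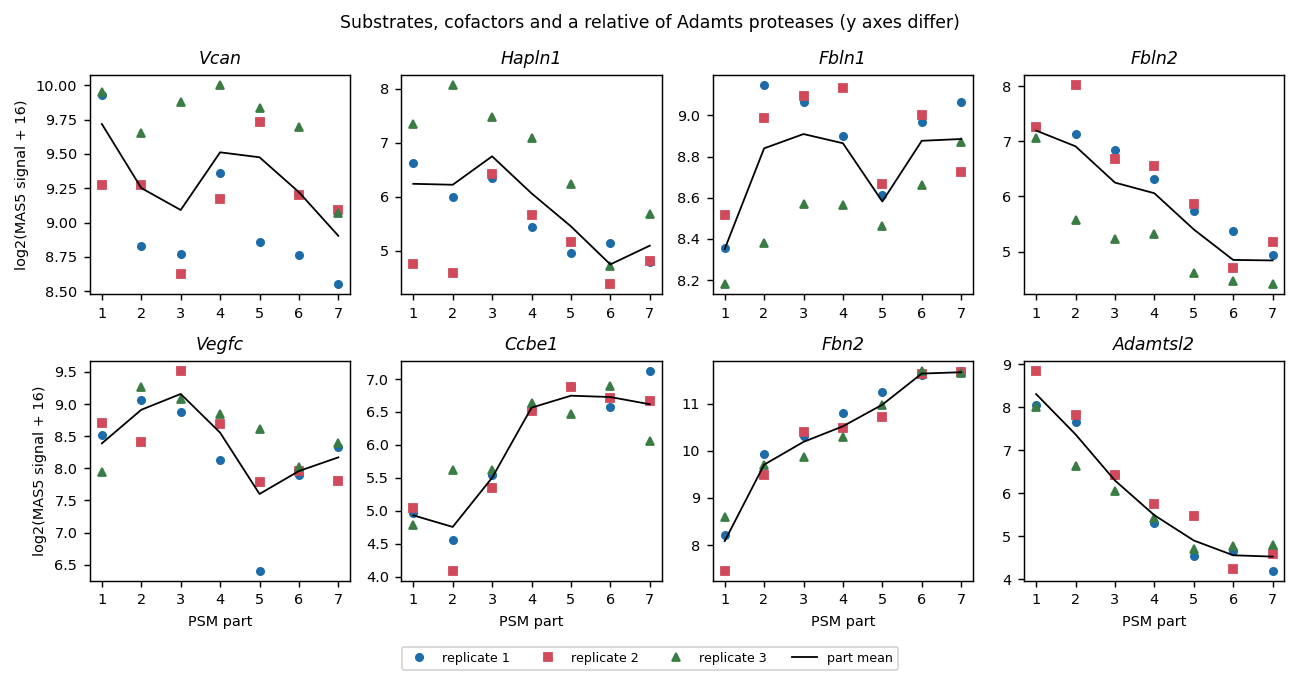
Log2(MAS5 signal + 16) in each of the 21 arrays against PSM part for the proteoglycan Vcan, the link protein gene Hapln1, the fibulins Fbln1 and Fbln2, the Adamts3 partners Vegfc and Ccbe1, the fibrillin Fbn2 and the relative Adamtsl2, with symbols for replicate numbers and a line through part means. Fbn2 and Ccbe1 are higher in part 7 than in part 1 in every array, while Adamtsl2 and Fbln2 are lower in every array.

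Of 20 inhibitors, cofactors and activators, 19 were measured and 17 passed the filter, of which 2 rose, 4 fell and 11 did not pass (median slope -0.03). Over all genes tested, 8.09% rose and 11.1% fell. For part 7 against part 1, 2 were higher (Ccbe1 and Pcsk5) and 2 lower (Fbln2 and Pgr), beside 6.1% and 7.3% of all genes tested. Besides Ccbe1, Pcsk5, a proprotein convertase, rose with a slope of 0.47 ± 0.03 per part (SE; limma, adjusted p = 1.53e-10) and was 6.36-fold higher in part 7 than in part 1. Furin had a slope of -0.05 ± 0.02 (adjusted p = 0.0857), and it passed in the fit on means of probe sets (adjusted p = 0.0473). Sdc4, a syndecan, passed with the replicate block only (-0.13, adjusted p = 0.0412). Of the fibulins, Fbln2 fell with a slope of -0.43 ± 0.06 (adjusted p = 2.41e-05), while Fbln1, a cofactor of Adamts1 in aggrecan cleavage, had a slope of 0.05 ± 0.03 (adjusted p = 0.275). Pgr, the progesterone receptor that induces Adamts1 in the ovary, fell with a slope of -0.24 ± 0.05 (adjusted p = 0.000523). Its signals were low beyond the first parts. The mean log2 signal was 6.10 ± 0.58 in part 1 (SD, n = 3), 4.69 in part 4 and 4.28 in part 7, where 4 is a signal of 0.

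Among the tissue inhibitors, Timp2 fell with a slope of -0.12 ± 0.03 per part (SE; limma, adjusted p = 0.00842), a call lost without replicate 2 (adjusted p = 0.222). Timp3, the inhibitor with the best known activity against Adamts4 and Adamts5, had a slope of 0.17 ± 0.08 (adjusted p = 0.129), and Timp1 of -0.04 ± 0.03 (adjusted p = 0.296). The glucosyltransferase gene B3glct, which extends O-fucose on thrombospondin repeats, fell with a slope of -0.09 ± 0.03 (adjusted p = 0.0232), but not without replicate 1 or replicate 2 (adjusted p = 0.15 and 0.114). Pofut2, which adds that fucose, had a slope of 0.04 ± 0.04 (adjusted p = 0.498). Part 7 against part 1 did not pass for Timp2 or B3glct (limma, adjusted p = 0.0528 and 0.256).

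Of 25 other matrix and cell-surface metalloproteases, 24 were measured and 19 passed the filter, of which 1 rose, 5 fell and 13 did not pass (median slope -0.05). The shares over all genes tested were 8.09% rising and 11.1% falling. For part 7 against part 1, 1 was higher (Mmp11) and 4 lower (Mmp2, Adam9, Adam19 and Adam23), beside 6.1% and 7.3% of all genes tested. The gelatinase gene Mmp2 fell with a slope of -0.33 ± 0.04 per part (SE; limma, adjusted p = 1.24e-06), Adam19 with a slope of -0.31 ± 0.05 (adjusted p = 0.000166) and Adam9 with a slope of -0.11 ± 0.02 (adjusted p = 0.00029). Adam12 fell with a slope of -0.18 ± 0.05 (adjusted p = 0.018) and Tll2, a relative of the procollagen C-proteinase Bmp1, with a slope of -0.15 ± 0.04 (adjusted p = 0.00657). Part 7 against part 1 did not pass for Adam12 or Tll2 (limma, adjusted p = 0.0774 and 0.135). Signals of Tll2 were low. Its mean log2 signal was 4.75 in part 1, 5.21 in part 2 and 4.13 in part 7, where 4 is a signal of 0. Mmp11 rose with a slope of 0.08 ± 0.03 (adjusted p = 0.0386). The call of Adam12 was lost without replicate 3 (adjusted p = 0.153) and with a pseudocount of 1 (0.0707), that of Tll2 without replicate 1 (adjusted p = 0.138), and that of Mmp11 without replicate 1 or replicate 3 (adjusted p = 0.208 and 0.196) and without the filter (0.0669). Adam17 (slope -0.06, adjusted p = 0.0675) passed with the replicate block (0.0372) and without replicate 3 (0.0291).

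**Figure D5:**
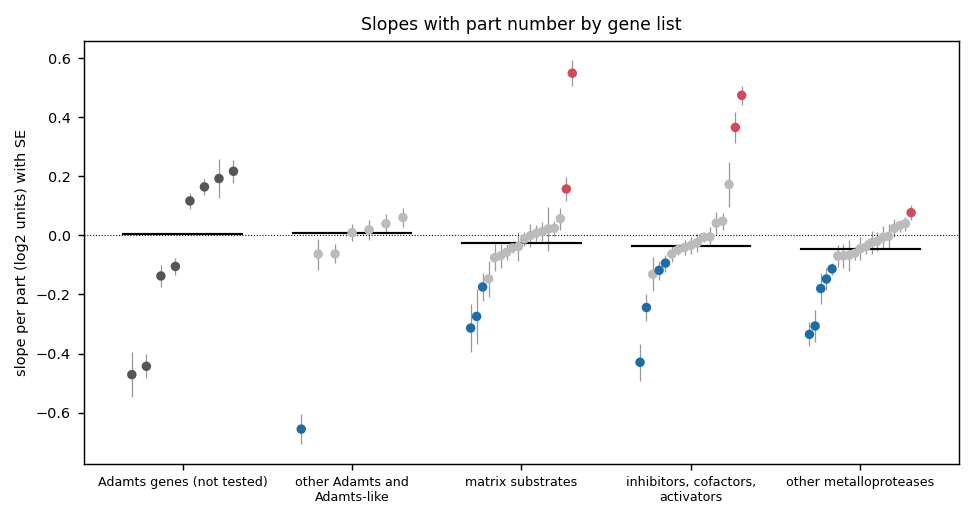
Log2 change per part (slope, with bars for the SE) of each gene that passed the filter, by gene list, and a black bar at each median. Red and blue points rose or fell at an adjusted p under 0.05, light grey points did not pass, and the 8 Adamts genes, in dark grey, were not tested; Adamtsl2 is lowest at -0.66 and Fbn2 highest at 0.55.

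Per the labels, surrounding ectoderm, endoderm and lateral plate were removed with needles. Summed signals of markers of other cells still differed along the parts. The 12 endothelial genes had a summed signal of 109 to 763 in part 1, 94.6 to 1529 in part 2, 715 to 1150 in part 3 and 116 to 454 in part 7. 11 of the 12 passed the filter, and Pecam1 reached the table median in 1 of 21 arrays. In part 2 the sum was 844, 94.6 and 1529 in replicates 1, 2 and 3. In the same arrays Adamts9 had signals of 272, 199 and 156, and Adamts1 of 45.1, 24.9 and 41.7. A relation over the 21 arrays was not tested. For blood, 7 of 8 genes were measured and 6 passed, with sums of 10740 to 18246 in part 1 and 6546 to 12354 in part 7.

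Neural tube sums were lower in all arrays of part 7 than in part 1, as were signals of Adamts20 and Adamts3, while gut sums of these parts overlapped. The 8 neural tube genes, of which 6 passed the filter, summed to 777 to 1236 in part 1 and 147 to 266 in part 7. Most of the sum was Fabp7, with mean log2 signals of 9.92 in part 1 and 6.57 in part 7, and Sox2 was at 5.63 and 4.81. Others of the list had higher means in part 7 than in part 1, with Irx3 at 4.74 ± 0.50 and 6.19 ± 0.41 (SD, n = 3). Differences were small for Nkx6-1 (4.46 ± 0.37 and 4.73 ± 0.50), Olig2 (4.15 ± 0.13 and 4.38 ± 0.49) and Pax6 (4.69 ± 0.29 and 4.79 ± 0.44). Olig2 was highest in part 6, at 5.21. Sox1 reached the table median in 1 of 21 arrays and Neurog2 in 0. The 10 gut endoderm genes, of which 7 passed, summed to 177 to 458 in part 1, 66.2 to 86.4 in part 6 and 74.9 to 211 in part 7, with Foxa2 at or above the median in 2 arrays. The part of these cells in the values of the Adamts genes was not tested.

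The lateral mesoderm list (7 genes, 4 passed) had sums of 72.4 to 588, highest in part 2 replicate 3, with Foxf1 at or above the median in 1 array. The neural crest list (4 of 5 measured, 2 passed) had sums of 55.3 to 279, with 201 to 279 in part 7 and 111 to 207 in part 1. Notochord (3 of 4 measured, 1 passed) and surface ectoderm (6 genes, 4 passed) had sums of 19.3 to 60.0 and of 26.1 to 121.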

How the data were processed

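MAS5 signals of 21 Affymetrix arrays (7 PSM parts, 3 arrays each) were used as deposited. They are intensity values on a linear scale that the authors made with MAS5, per the submitters' processing notes, from RNA labelled by a 2-cycle protocol per the labels. Neither its version nor its scaling target is known from the sources used here. Amplification of small samples can widen the spread between arrays.

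Of 45101 probe sets, 34945 with 1 symbol were kept (64 controls, 9160 without symbol and 932 with several left out). Of these probe sets, 34884 had a symbol found in RefSeq. Each gene was represented by the probe set with the highest mean. Genes reaching the table median (13.3) in at least 3 arrays were kept, 12143 of 18193. Log2(signal + 16) was fitted with limma 3.58.1 (R 4.3.3, eBayes with a variance trend) over all 21 arrays, as a line on part number and as a means model for part 7 against part 1, with Benjamini-Hochberg adjustment over all genes and a threshold of 0.05. The scripts were tested on simulated data. Other steps used Python 3.11.15.

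The genes and lists were chosen with earlier results of these data known, and the 8 genes got no p-value for differences between parts. Named genes were all 8 with every probe set, every measured relative, up to 6 called genes per list by absolute slope, listed key partners and cell markers, and the 3 genes most correlated with each of the 8. The alternatives tried were other pseudocounts (1 and 64), another filter (none, or the 75th percentile), arrays centred on their medians or quantile normalized, the mean of probe sets, eBayes without the trend, a replicate block and leaving out replicates.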

Additional observations from a re-analysis of the deposited data

How the results depend on the processing

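No slope or end-to-end difference of the 8 Adamts genes, and no called slope of a named gene, changed direction under any alternative tried, while slopes near 0 that did not pass, such as those of Adamts7, Thsd4, Acan and Col2a1, and that of Col1a1 (0.01 without replicate 2), changed sign under some. With a pseudocount of 1 the slope was 0.49 for Adamts5, 0.52 for Adamts15, -0.59 for Adamts3 and 0.25 for Adamts12, and part 7 minus part 1 was 1.88, 2.78, -2.74 and 1.34. With a pseudocount of 64 these slopes were 0.0751, 0.0858, -0.27 and 0.0793, and the differences 0.20, 0.59, -1.23 and 0.46. A larger pseudocount shrinks low signals by construction. With the mean of all probe sets the slope was 0.0947 for Adamts5, -0.0571 for Adamts9, -0.23 for Adamts3 and 0.0868 for Adamts12, and the differences 0.20, -0.35, -1.10 and 0.47. That mean also took the other family members called from 1 to 2 (Adamts4). The filter at the 75th percentile, which tests fewer genes, left 3 other metalloproteases called in place of 6. Leaving out replicate number 1, 2 or 3 gave 1374, 1465 and 1869 genes with a slope, against 2328, and 704, 750 and 1406 genes for part 7 against part 1, against 1628, with fewer arrays fitted. Substrates called were then 2 to 5. With the replicate block, part 7 against part 1 gave 2860 genes, including all 1628, and the slope gave 3046. Regulators and other metalloproteases called each went from 6 to 7 (Sdc4 and Adam17 gained, both named after their values were seen). Of 63 pairs of arrays with the same number 55 had correlated deviations over 0.1 (lowest 0.04), with a median of 0.31 against -0.23 for different numbers, and 18 of 21 arrays correlated best with their own number. Every pair with the same number was thus above 0, so that arrays with the same number varied together, though not every array correlated best with its own number. Deviations were taken from the mean of each part, so they sum to 0 within it. A positive r for the same number thus pushes r for different numbers below 0 by construction, and the -0.23 is no separate result. The labels do not tie the numbers to embryos or sides, and the block was kept as an alternative. The settings without part 2 replicate 3 and without part 1 replicate 1, the arrays with the highest endothelial and blood sums, were chosen after seeing the data, and gave 2135 and 1969 genes with a slope and 1712 and 1237 for part 7 against part 1. Without them Hapln1 (adjusted p from limma 0.0733 and 0.0683) and Mmp11 (0.0511 and 0.0658) no longer passed. Low signals limit Adamts15 and Adamts5, which were below the table median in 15 and 11 of 21 arrays.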

Other observations

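Replicate numbers differed from each other across parts for many genes. In a test chosen after seeing the data, a moderated F test of limma for the replicate number beside the part, 33.3% of 12143 genes passed at an adjusted p under 0.05. Adamts20 was among them (adjusted p = 0.016), with mean log2 signals of 8.23, 8.47 and 9.08 over the 7 parts in replicate numbers 1, 2 and 3. The 7 other Adamts genes did not pass (adjusted p from 0.101 to 0.803). Dixdc1, the gene closest to Adamts20 over the arrays, passed too (adjusted p = 0.00831), as did Hapln1 (0.00102) and Fbln2 (0.000339). What the numbers stand for was not tested.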
